A study of Mus musculus with 8 samples.

Results

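The Wnt ligands, their receptors and their secreted antagonists were described in tumors of the Lewis lung carcinoma (LLC), a line of mouse lung cancer cells implanted subcutaneously. Members were taken by gene name: every protein-coding Wnt, Fzd, Sfrp, Dkk or Rspo gene with a number, together with Ror1, Ror2, Ryk, Lrp5, Lrp6, Wif1, Notum, Axin2, Lef1 and Tcf7. The rule found 51 members among 55487 rows of the count table. They were 19 Wnt ligands, 4 R-spondins, 10 Frizzled receptors, 5 co-receptors or alternative receptors, 10 secreted antagonists, and the feedback gene Axin2 with the nuclear factors Lef1 and Tcf7. Both groups were grown in female C57BL/6J mice, 6 to 8 weeks old at purchase, with host Ago2 intact, and tumors were taken at day 12. Of the 8 tumors, 4 came from wild-type LLC cells and 4 from LLC cells labelled Ago2 knock-out, made with a lentiviral CRISPR guide and single-cell sorting. A single knock-out clone was named for engraftment, so the clone and the loss of Ago2 cannot be told apart. Ago2 is the Argonaute protein through which small RNAs silence the transcripts they match.

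Wnt ligands are secreted lipid-bearing proteins that bind Frizzled receptors. With the co-receptors Lrp5 and Lrp6 they stop the destruction of beta-catenin, which then acts with Tcf and Lef factors on target genes such as Axin2. With Ror2, Ryk or Ptk7 they instead guide cell shape and movement, the branch for which Wnt5a is best known. R-spondins keep Frizzled receptors at the surface, whereas Sfrp, Dkk, Wif1 and Notum proteins hold the signal back.

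Library totals ran from 7903288 to 268564145 counts, and both extremes were tumors numbered 4, wild-type and knock-out respectively. A gene with 0 counts could thus have stood at up to 0.43 CPM (counts relative to a common library total, TMM-scaled) in the shallowest library and 0.0105 CPM in the deepest, by counting error alone. Ago2 RNA did not check the labels: its log2 fold change was 0.64 ± 0.30 (SE, edgeR adjusted p = 0.205, n = 4 per group). Host cells within the tumors carried intact Ago2. Of the lung epithelial markers, the keratin gene Krt8 was abundant, from 336 to 736 TPM (a scaled level that corrects for gene length). The defining lung factor Nkx2-1 was at 0 in all 8 libraries, and the surfactant gene Sftpc did not exceed 0.13 TPM. Wild-type tumor 3 stood apart by its skeletal muscle markers, which summed to 5093 TPM against 95.2 to 533 TPM in the other tumors. Knock-out tumor 1 stood apart by its fibroblast markers, which summed to 649 TPM against 1347 to 2518 TPM elsewhere, and by its adipocyte markers, at 703 TPM, which reached 480 TPM in wild-type tumor 3. Col3a1 was by far the largest term of the fibroblast sum, at a mean of 1129 TPM over all tumors, followed by Col1a1 at 206 TPM. In tumor RNA, fewer cells of a type and less RNA per cell cannot be told apart.

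The sequences shown first are those of the members that changed between genotypes. RefSeq promoter windows on GRCm38.p6, from 250 bases before to 50 after the start site, were found for 34 of the 51 members, and for 4 of the 5 that passed the test (Ror2, Axin2, Fzd9 and Wnt9a, all lower in knock-out tumors). Promoters of Ror2 and Axin2 are printed because these genes stand for the receptor and the feedback arm of the result. Capitals mark each GC box (GGGCGG, read on both strands, overlaps allowed).
Ror2 promoter, chr13:53286075-53286374, minus strand: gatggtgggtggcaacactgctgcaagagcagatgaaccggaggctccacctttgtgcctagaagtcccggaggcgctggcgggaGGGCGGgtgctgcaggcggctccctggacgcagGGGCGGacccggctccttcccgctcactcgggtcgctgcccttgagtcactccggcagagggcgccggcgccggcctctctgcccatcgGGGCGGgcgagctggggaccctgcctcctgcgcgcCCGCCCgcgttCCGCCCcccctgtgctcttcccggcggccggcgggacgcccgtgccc
Axin2 promoter, chr11:108920099-108920398, plus strand: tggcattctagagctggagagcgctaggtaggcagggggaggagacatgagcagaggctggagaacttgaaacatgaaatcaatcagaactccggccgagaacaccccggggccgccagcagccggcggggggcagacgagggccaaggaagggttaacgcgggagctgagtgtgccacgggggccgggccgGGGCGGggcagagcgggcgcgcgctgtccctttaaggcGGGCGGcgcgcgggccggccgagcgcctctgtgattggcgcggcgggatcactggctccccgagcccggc

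All 4 windows were rich in G and C. GC content was 74.7% for Ror2, 70% for Axin2, 78% for Fzd9 and 83.3% for Wnt9a, against a median of 52.7% over 32851 promoters of the same length. The Ror2 and Wnt9a windows each held 5 GC boxes, Axin2 held 2 and Fzd9 held 1. Promoters of members that were not called were GC-rich too: their 37 windows ran from 43.7% to 86.3% with a median of 66.7%, 14 of them were at 70% or more, and 28 held a GC box, 12 of them 3 or more. Of all promoters, 35.7% held at least 1 GC box and 10.7% held 3 or more. The letters that Tcf and Lef factors bind, CTTTGNT on either strand, were in none of these 4 windows. They were in 7 of the 41 promoter windows of members (17.1%), and in 18.6% of all promoters.

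Since microRNAs guide Ago2 to its targets, seed matches were read in the longest 3'UTR of the 5 members that passed the test (GENCODE M21, GRCm38), for 14 microRNA families written from general knowledge. The mature sequences printed here (RefSeq) are those with a match in Wnt5a, the member that rose, with the seed (bases 2 to 8) in capitals.
mmu-miR-26a-5p: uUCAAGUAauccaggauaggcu
mmu-miR-30a-5p: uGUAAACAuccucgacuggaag
mmu-miR-34a-5p: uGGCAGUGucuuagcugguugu
mmu-miR-181a-5p: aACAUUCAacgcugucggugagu
mmu-miR-200b-3p: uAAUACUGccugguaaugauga
The 3'UTR of Wnt5a (4508 bases) held 1 match to each of these 5 seeds. The sites are printed on the gene's strand, with the match in capitals.
miR-26a site, chr14:28524324-28524346: aaactgttcctagtgTACTTGAa
miR-181a site, chr14:28524638-28524660: tcagggctcatgtccTGAATGTa
miR-200b site, chr14:28526414-28526436: cagttgtatattgacCAGTATTc
miR-34a site, chr14:28526657-28526679: acttcccaggacgacCACTGCCt
miR-30a site, chr14:28527181-28527203: gttaacatggattaaTGTTTACa
Among 1326 3'UTRs of like length, 29.3% held the miR-26a seed match and 42.2% the miR-181a match, the lowest and highest of the 5 shares. Members that fell had matches too. Ror2 (908 bases) held 3, among them a miR-200b match that 10.5% of 2920 3'UTRs of like length held.
Ror2 miR-200b site, chr13:53109429-53109451, minus strand: acgttgtacagaaagCAGTATTg
Axin2 (1388 bases) held 2 matches, both to miR-16, a match that 22.9% of 3'UTRs of like length held. Wnt9a (2177 bases) held 3, 1 to let-7a and 2 to miR-19b, where 13.4% and 16.4% of 3'UTRs of like length held these matches. Fzd9, whose 3'UTR has only 313 bases, held 0. MicroRNA levels were not measured here, and a seed match is a description of the sequence, not evidence of a working site.

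A few genes made up most of the RNA of these members. On the TPM scale, averaged over all tumors, Dkk2, an antagonist that binds Lrp5 and Lrp6, was the most abundant member at 205 TPM. Wnt7b, a ligand of lung epithelium, followed at 141 TPM, the alternative receptor Ryk at 92.0 TPM and Lrp5 at 72.2 TPM. These 4 genes made up 83.5% of the summed TPM of all members. Only 25 of 51 members reached a mean of 1 TPM, and 11 stayed under 0.1 TPM.

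**Figure D1:**
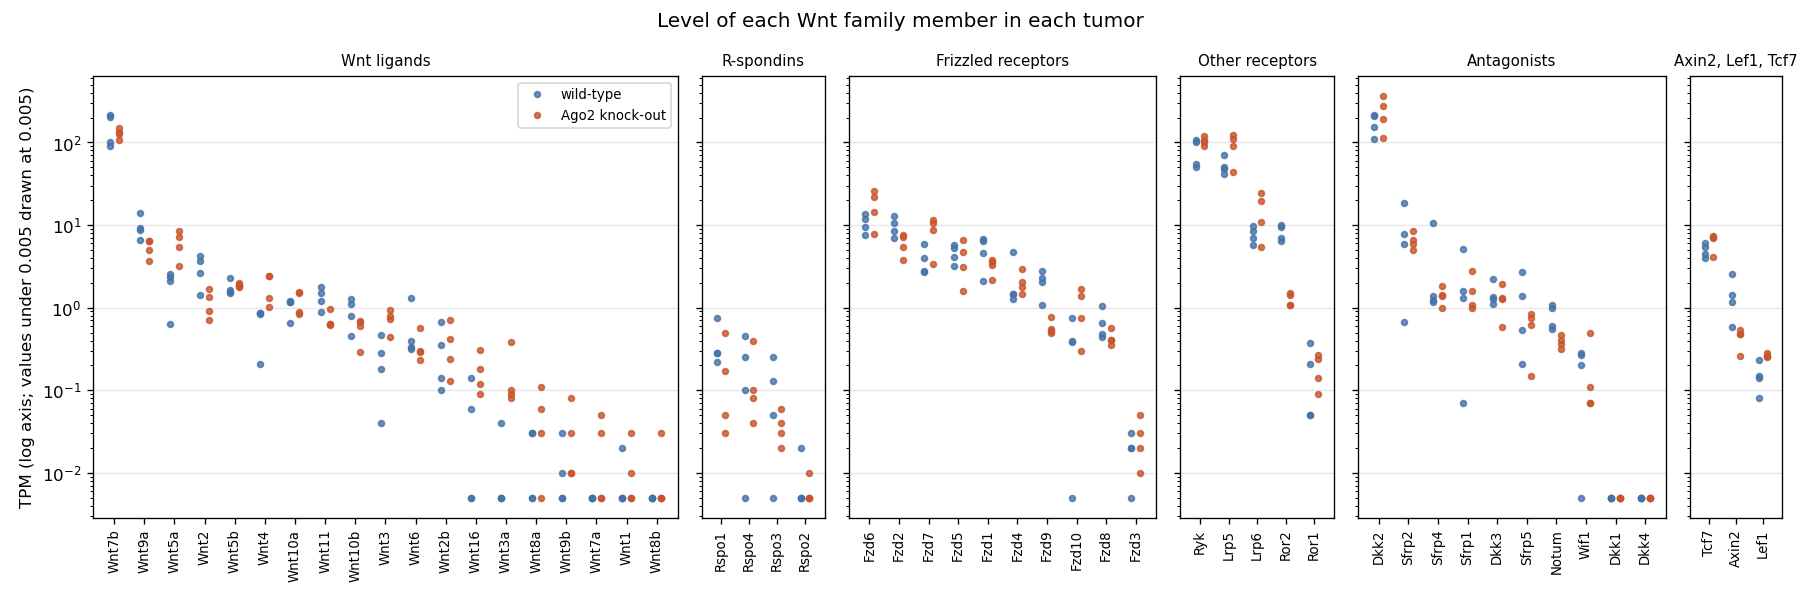
Level of each of the 51 members in each tumor, in TPM on a log axis, by role and in descending order of the mean over all tumors. Blue points are the 4 wild-type tumors and orange points the 4 knock-out tumors, and values under 0.005 TPM are drawn at 0.005. Dkk2, Wnt7b, Ryk and Lrp5 stand above all other members, and the R-spondins stay under 1 TPM in every tumor.

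The comparison of genotypes asked whether loss of Ago2 in the cancer cells went with a change in these genes. Of 51 members, 37 passed the count filter and were tested, and 14 were not. Each was tested by the quasi-likelihood method of edgeR with Benjamini-Hochberg adjustment over 16061 genes, and a gene was called at an adjusted p under 0.05. Of the 37, 5 were called, that is 13.5%, where 3.49% of all genes tested were called. The 4 lower members were Ror2, Axin2, Fzd9 and Wnt9a, against a background of 2.12% called lower. The only higher one was Wnt5a, against 1.36% called higher. Log2 fold changes were below 0 for 23 of the 37 members (62.2%) and for 47.5% of all genes, with medians of -0.39 and 0.04. This lean was smaller without wild-type tumor 3, where the set of members tested also changed. Of the 39 members then tested, 20 were below 0, with a median of -0.02 against 0.07 for all genes. In the filtered fit of log2(TPM + 1), 15 of 30 members were below 0. The median there was -0.06 for members and 0.21 for all genes. An unadjusted p under 0.05 was found for 15 of the 37 members (40.5%) and for 26.7% of all genes.

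The genotypes did not overlap, that is every tumor of one was above every tumor of the other, for 10 of the 37 members (27.0%) and for 16.4% of all genes. Of these 10, 8 were lower in knock-out tumors (8.36% of all genes) and 2 were higher (8.05% of all genes). The 8 lower ones were Ror2, Axin2, Fzd9, Wnt9a, Wnt2, Fzd2, Wnt11 and Notum, and the 2 higher ones were Wnt5a and Wnt4.

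**Figure D2:**
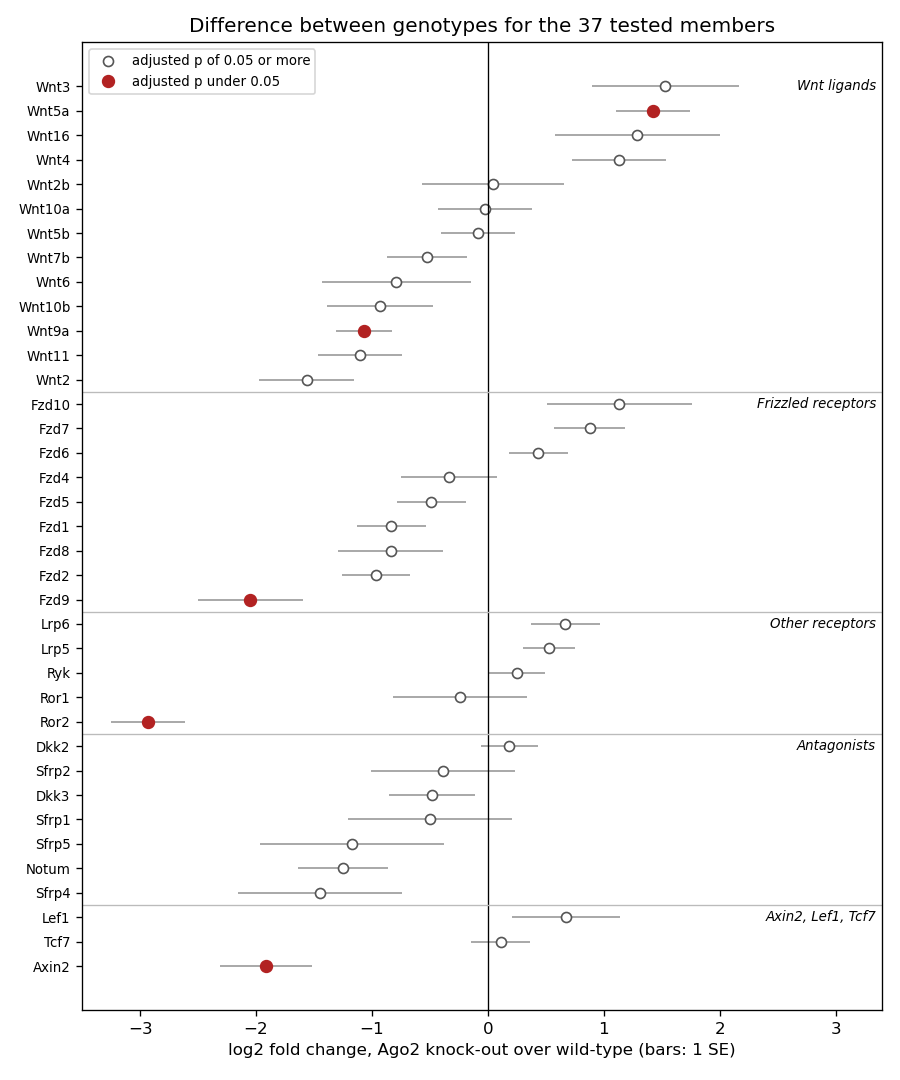
Log2 fold change, knock-out over wild-type tumors, for the 37 tested members by role. Points are edgeR estimates with bars of 1 SE (n = 4 per group), and filled red points passed the adjusted p of 0.05. Ror2 lies farthest from 0 at -2.93, and Wnt5a is the only filled point above 0.

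Among the ligands, Wnt5a rose, Wnt9a fell, and Wnt7b, the most abundant ligand, did not pass the test. Wnt5a (ENSMUSG00000021994.15, chr14:28504750-28527448, plus strand, GRCm38) stood at 6.43, 5.86, 6.96 and 2.44 CPM in the wild-type tumors 1 to 4. In knock-out tumors 1 to 4 it stood at 11.3, 18.2, 13.3 and 16.7 CPM. Every knock-out tumor was thus above every wild-type tumor, and wild-type tumor 4, the shallowest library, was the lowest. The means were 5.42 ± 2.04 CPM and 14.9 ± 3.13 CPM (SD, n = 4), a 2.69-fold higher level with a log2 fold change of 1.43 ± 0.32 (SE, edgeR adjusted p = 0.0396). Exons of Wnt5a share 358 bases with Gm2670 on the opposite strand, and the strand setting of the counting was not stated. The call was lost when wild-type tumor 2 or knock-out tumor 2, 3 or 4 was left out (edgeR adjusted p = 0.111, 0.126, 0.0852 and 0.130), at log2 fold changes of 1.30 to 1.49.

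Wnt9a, a ligand of the beta-catenin branch, moved the other way. Wnt9a (ENSMUSG00000000126.11, chr11:59306928-59333552, plus strand) stood at 10.7, 16.5, 10.1 and 11.04 CPM in the wild-type tumors 1 to 4. In knock-out tumors 1 to 4 it stood at 5.52, 5.90, 5.22 and 6.35 CPM. The knock-out tumors lay close together, at 5.75 ± 0.488 CPM (SD, n = 4), and all were below the wild-type tumors, at 12.1 ± 2.99 CPM (SD, n = 4). The level was 2.10-fold lower, with a log2 fold change of -1.07 ± 0.24 (SE, edgeR adjusted p = 0.0403). The call was kept only without wild-type tumor 3 or knock-out tumor 1, and leaving out any other tumor raised the edgeR adjusted p to between 0.0502 and 0.134.

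Wnt7b varied more among wild-type tumors than between genotypes. It stood at 156.6, 374, 173 and 488 CPM in the wild-type tumors 1 to 4, and at 236, 180, 196 and 215 CPM in knock-out tumors 1 to 4. Wild-type tumors 2 and 4 were high, wild-type tumors 1 and 3 were below every knock-out tumor, and the groups overlapped. The log2 fold change was -0.53 ± 0.35 (SE, edgeR adjusted p = 0.338), and it was 0.17 once a GC trend was removed from each library.

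Of the other ligands whose groups did not overlap, none passed the test. Wnt2, a ligand of mesenchymal cells in the lung, stood at 2.06, 3.38, 2.90 and 1.58 CPM in the wild-type tumors 1 to 4 and at 0.923, 0.430, 1.19 and 0.886 CPM in knock-out tumors 1 to 4 (log2 fold change -1.56 ± 0.41 SE, edgeR adjusted p = 0.0625). Wnt11, which acts mostly outside the beta-catenin branch, stood at 1.29, 2.19, 2.52 and 2.44 CPM against 1.17, 0.711, 0.836 and 1.17 CPM (log2 fold change -1.10 ± 0.36 SE, edgeR adjusted p = 0.101). For both, the gap between the groups was small beside the spread among wild-type tumors. Wnt4, a ligand of epithelia, stood at 1.27, 1.24, 1.26 and 0.430 CPM in the wild-type tumors 1 to 4 and at 1.97, 1.51, 3.25 and 2.98 CPM in knock-out tumors 1 to 4 (log2 fold change 1.14 ± 0.41 SE, edgeR adjusted p = 0.119). Its value in wild-type tumor 4 was the level of 3 counts. The remaining 7 tested ligands (Wnt10a, Wnt10b, Wnt16, Wnt2b, Wnt3, Wnt5b and Wnt6) had log2 fold changes from -0.93 to 1.53 and edgeR adjusted p from 0.158 to 0.974. Their levels did not exceed a mean of 1.81 TPM, that of Wnt5b. The 6 untested ligands were Wnt1, Wnt3a, Wnt7a, Wnt8a, Wnt8b and Wnt9b, all under 0.1 TPM on average. Wnt3a, the classic activator of beta-catenin, was listed at 0.04, 0, 0 and 0 TPM in the wild-type tumors 1 to 4 and at 0.08, 0.09, 0.10 and 0.38 TPM in knock-out tumors 1 to 4, on at most 89 counts in a library.

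No R-spondin passed the count filter. Rspo1, the most abundant, stood at 0.22, 0.28, 0.28 and 0.75 TPM in the wild-type tumors 1 to 4 and at 0.05, 0.03, 0.49 and 0.17 TPM in knock-out tumors 1 to 4, on 2 to 27 counts. Rspo4 stood at 0.25, 0.46, 0.10 and 0 TPM against 0.08, 0.04, 0.40 and 0.10 TPM, and Rspo2 and Rspo3 had means of at most 0.0725 TPM. These genes were near the limit of detection, and a difference between genotypes was not detectable at this depth.

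Among the Frizzled receptors, Fzd9 fell, and the most abundant ones did not pass the test. Fzd9 (ENSMUSG00000049551.2, chr5:135248938-135251230, minus strand) stood at 0.862, 1.67, 1.83 and 3.15 CPM in the wild-type tumors 1 to 4. In knock-out tumors 1 to 4 it stood at 0.513, 0.325, 0.567 and 0.368 CPM. The groups did not overlap, wild-type tumor 1 lying nearest to the knock-out tumors. The level was 4.14-fold lower, with a log2 fold change of -2.05 ± 0.45 (SE, edgeR adjusted p = 0.0383). Leaving out wild-type tumor 2 or 4, or knock-out tumor 2, 3 or 4, raised the edgeR adjusted p to between 0.0764 and 0.155.

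Fzd6, the most abundant Frizzled on the TPM scale at 14.1 TPM, acts in planar cell polarity. It stood at 20.2, 22.9, 15.9 and 18.1 CPM in the wild-type tumors 1 to 4 and at 17.2, 34.2, 21.9 and 30.8 CPM in knock-out tumors 1 to 4 (log2 fold change 0.43 ± 0.25 SE, edgeR adjusted p = 0.290). Fzd2, a receptor for Wnt5a, stood at 8.96, 16.4, 10.8 and 19.4 CPM against 6.30, 5.49, 8.75 and 7.72 CPM. Its groups did not overlap, but the log2 fold change of -0.96 ± 0.29 (SE) did not pass the test (edgeR adjusted p = 0.0883). Of the other Frizzled receptors, Fzd1, Fzd4, Fzd5, Fzd7, Fzd8 and Fzd10 had log2 fold changes from -0.84 to 1.14 and edgeR adjusted p from 0.115 to 0.616, with mean levels of up to 6.18 TPM. Fzd3 was not tested, at a mean of 0.0225 TPM.

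Ror2, the receptor tyrosine kinase that binds Wnt5a, gave the largest difference among the 37 tested members. Ror2 (ENSMUSG00000021464.14, chr13:53109312-53286124, minus strand) stood at 9.59, 14.02, 10.2 and 20.9 CPM in the wild-type tumors 1 to 4. In knock-out tumors 1 to 4 it stood at 2.11, 1.75, 1.46 and 1.77 CPM. The lowest wild-type tumor was thus far above the highest knock-out tumor, and the knock-out tumors differed little among themselves. The means were 13.7 ± 5.22 CPM and 1.77 ± 0.266 CPM (SD, n = 4), a 7.63-fold lower level with a log2 fold change of -2.93 ± 0.32 (SE, edgeR adjusted p = 0.00215). Ror2 passed the test in all 24 alternatives of processing, each single tumor left out included, with log2 fold changes from -3.28 to -1.996.

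No other co-receptor or alternative receptor passed the test. Its relative Ror1 was scarce, at 0.178 TPM on average, with a log2 fold change of -0.24 ± 0.58 (SE, edgeR adjusted p = 0.811). Ryk, a receptor with a Wnt-binding domain and an inactive kinase, stood at 160, 86.2, 171 and 114 CPM in the wild-type tumors 1 to 4 and at 189, 134, 147 and 160 CPM in knock-out tumors 1 to 4 (log2 fold change 0.25 ± 0.24 SE, edgeR adjusted p = 0.521). The co-receptor Lrp5 stood at 171, 242, 160 and 203 CPM against 195, 328, 279 and 314 CPM (log2 fold change 0.53 ± 0.23 SE, edgeR adjusted p = 0.169). The knock-out tumors 2, 3 and 4 were above every wild-type tumor for Lrp5, while knock-out tumor 1 lay among them. Lrp6, its partner in the same complex, had a log2 fold change of 0.67 ± 0.30 (SE, edgeR adjusted p = 0.181).

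**Figure D3:**
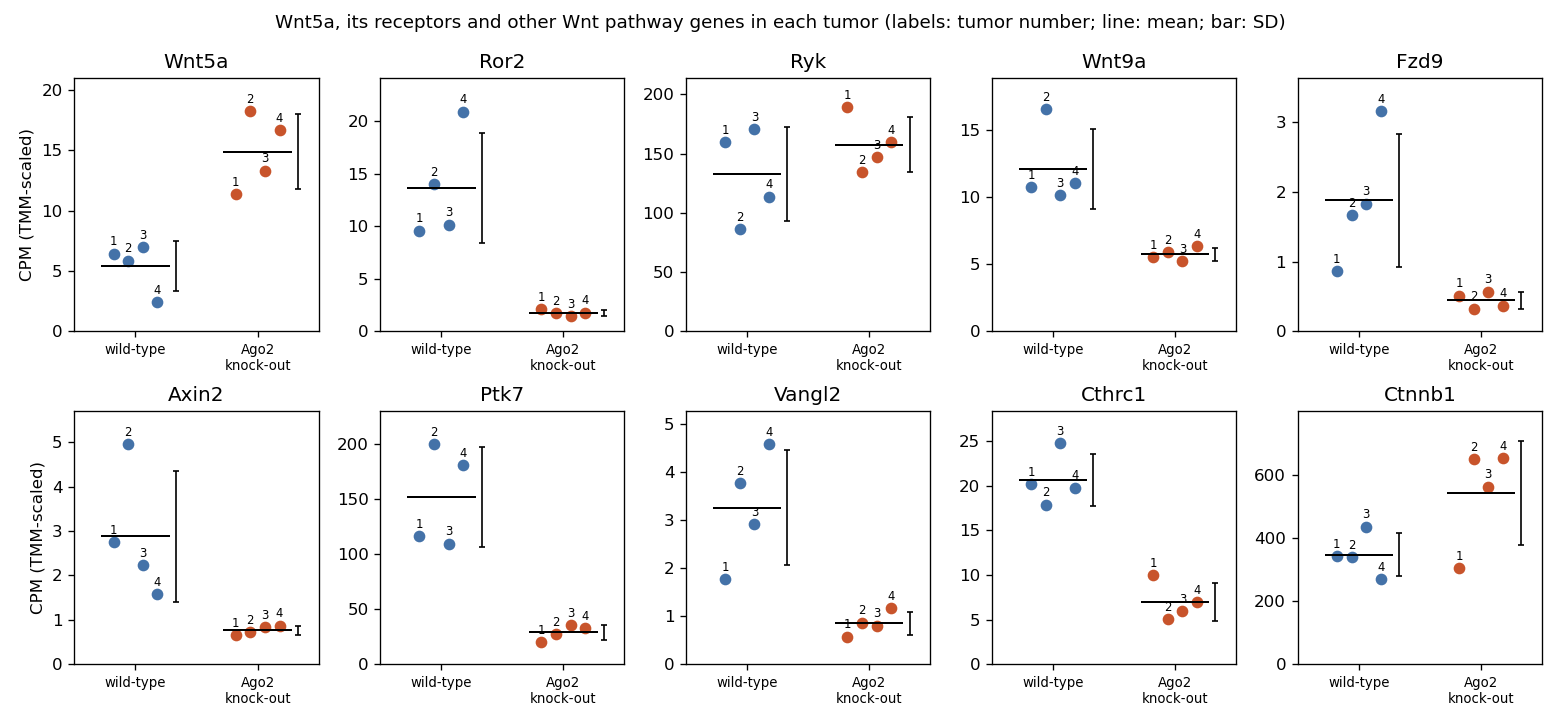
CPM (TMM-scaled) of the 5 members that passed the test, of Ryk, and of 4 other Wnt pathway genes in each tumor, on linear axes from 0. Points carry the tumor number, lines are group means and bars are SD (n = 4). Wnt5a is higher in every knock-out tumor, Ror2, Wnt9a, Fzd9, Axin2, Ptk7, Vangl2 and Cthrc1 are lower in every one, and Ryk and Ctnnb1 overlap.

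None of the 7 tested antagonists passed the test, where 3.49% of all genes did, and 6 of the 7 had log2 fold changes below 0. Dkk2 stood at 274, 203, 276 and 204 CPM in the wild-type tumors 1 to 4 and at 190, 368, 224 and 304 CPM in knock-out tumors 1 to 4, with overlapping groups (log2 fold change 0.18 ± 0.24 SE, edgeR adjusted p = 0.645, and -0.16 once a GC trend was removed). Notum, an enzyme that removes the lipid from Wnt ligands, did not overlap between groups but was low, at 0.462 to 0.906 CPM in wild-type and 0.252 to 0.358 CPM in knock-out tumors (log2 fold change -1.25 ± 0.39 SE, edgeR adjusted p = 0.0923). It rested on 222 counts over all libraries, and its exons share 708 bases with Notumos and 210 with Myadml2os, both on the opposite strand. Dkk1 and Dkk4 had no counts in any library, and Wif1 was too low to be tested.

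The Sfrp antagonists, which bind Wnt ligands outside the cell, were highest in a single tumor. Sfrp2, the most abundant, stood at 4.50, 5.82, 13.8 and 0.717 CPM in the wild-type tumors 1 to 4 and at 8.35, 2.92, 4.03 and 4.23 CPM in knock-out tumors 1 to 4 (log2 fold change -0.39 ± 0.62 SE, edgeR adjusted p = 0.711). Sfrp4, named after its values were seen, stood at 1.80, 1.72, 15.5 and 2.87 CPM against 3.51, 1.12, 1.82 and 1.75 CPM. All 4 tested Sfrp genes were highest in wild-type tumor 3. That tumor had the highest summed muscle and fibroblast markers (5093 and 2518 TPM), and adipocyte markers of 480 TPM. Sfrp2 and Sfrp4 were next highest in knock-out tumor 1, where adipocyte markers were highest (703 TPM) and fibroblast markers lowest (649 TPM). Without wild-type tumor 3, the log2 fold change of Sfrp4 went from -1.45 to -0.02 and that of Sfrp2 from -0.39 to 0.35. The part of muscle, fibroblasts or adipocytes in these values was not tested.

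**Figure D4:**
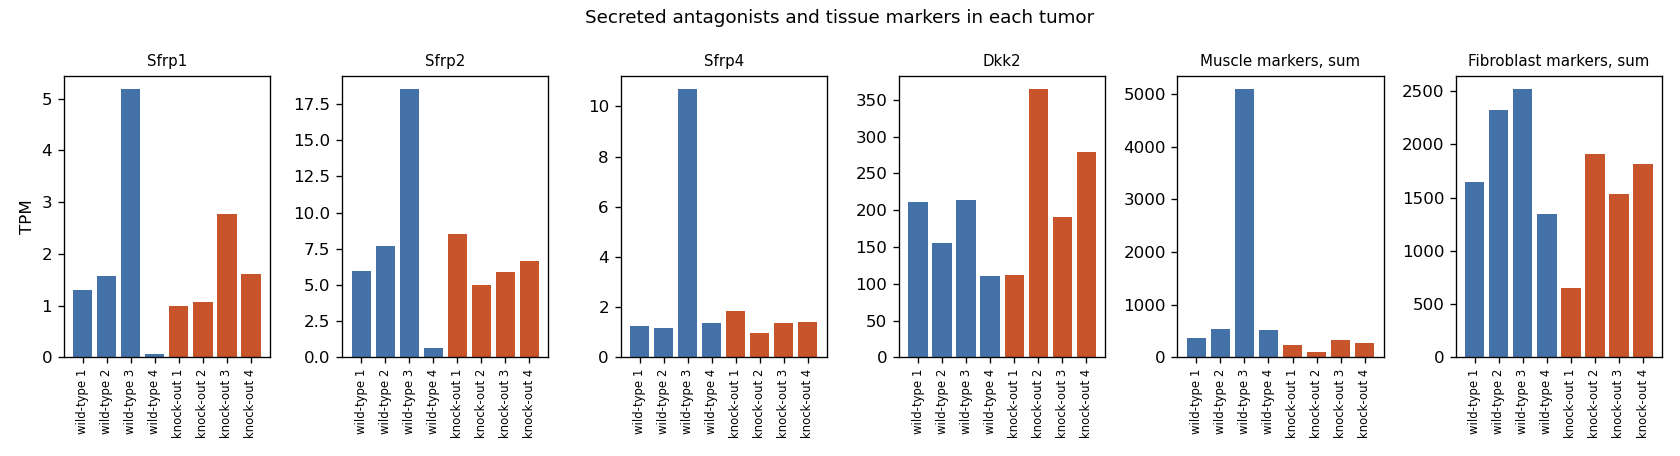
Level of Sfrp1, Sfrp2, Sfrp4 and Dkk2, and summed level of the skeletal muscle and fibroblast markers, in each tumor in TPM, on linear axes from 0. Blue bars are wild-type and orange bars knock-out tumors. Wild-type tumor 3 is highest for the 3 Sfrp genes, for the muscle markers, at 5093 TPM, and for the fibroblast markers, at 2518 TPM. Knock-out tumor 1 is lowest for the fibroblast markers, at 649 TPM.

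Axin2, a scaffold of the beta-catenin destruction complex and a widely used target of the pathway, fell. Axin2 (ENSMUSG00000000142.15, chr11:108920349-108950783, plus strand) stood at 2.75, 4.96, 2.23 and 1.58 CPM in the wild-type tumors 1 to 4. In knock-out tumors 1 to 4 it stood at 0.657, 0.719, 0.836 and 0.868 CPM. The knock-out tumors were close together and all below the wild-type tumors, among which tumor 2 was highest. The level was 3.77-fold lower, with a log2 fold change of -1.92 ± 0.40 (SE, edgeR adjusted p = 0.0309). Leaving out wild-type tumor 2 or knock-out tumor 2, 3 or 4 raised the edgeR adjusted p to between 0.0848 and 0.116. Its exons share 209 bases with Gm11670 on the opposite strand. Tcf7, a nuclear partner of beta-catenin, did not differ beyond its spread, at 5.57, 3.72, 4.90 and 5.88 CPM against 4.90, 4.93, 6.21 and 5.52 CPM (log2 fold change 0.11 ± 0.26 SE, edgeR adjusted p = 0.808). Lef1, the other factor, had a log2 fold change of 0.68 ± 0.47 (SE, edgeR adjusted p = 0.358) at a mean of 0.206 TPM.

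A further 74 genes of the pathway, in lists by function, were written from general knowledge, with earlier results of these data known. Of these, 68 were tested and 8 were called (11.8%), 3 higher and 5 lower. Of all genes, 3.49% were called, 1.36% higher and 2.12% lower. Ptk7, a co-receptor of planar cell polarity, stood at 117, 200, 109 and 181 CPM in the wild-type tumors 1 to 4 and at 20.4, 27.6, 35.8 and 33.1 CPM in knock-out tumors 1 to 4. Its log2 fold change was -2.37 ± 0.27 (SE, edgeR adjusted p = 0.00215). Vangl2, a core polarity protein that works with Ror2, had a log2 fold change of -1.89 ± 0.39 (SE, edgeR adjusted p = 0.0311). Cthrc1, a secreted protein that links Wnt ligands to Ror2, had one of -1.56 ± 0.26 (SE, edgeR adjusted p = 0.0118). For these 3 genes every knock-out tumor was below every wild-type tumor. Ptk7 passed the test whichever single tumor was left out. Cthrc1 lost its call without knock-out tumor 3 or 4 (edgeR adjusted p = 0.0515 and 0.0616). Vangl2 kept its call only without wild-type tumor 1 or 3 or knock-out tumor 1, and its edgeR adjusted p was at least 0.0636 without any other tumor.

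In the planar polarity list, Ptk7 and Vangl2 included, 7 of 12 tested genes had log2 fold changes above 0, with a median of 0.15. Groups did not overlap for 4 lower genes and 1 higher one, where 8.36% and 8.05% of all genes did not overlap. Besides Ptk7 and Vangl2, the lower ones were Fuz and Prickle1, which did not pass the test. Their log2 fold changes were -1.08 ± 0.30 and -0.74 ± 0.27 (SE, edgeR adjusted p = 0.0693 and 0.128). Vangl1, the close relative of Vangl2, was higher in every knock-out tumor and did not pass the test (log2 fold change 0.62 ± 0.20 SE, edgeR adjusted p = 0.0971). Cthrc1 was 1 of 10 tested genes for secretion and extracellular binding, of which 8 had log2 fold changes below 0. Groups did not overlap for 3 of these 10, all lower, where 8.36% of all genes were lower without overlap.

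Targets of beta-catenin moved in both directions. Of the 10 tested in the target list, 4 were called (40% against 3.49% of all genes), 3 higher and 1 lower (1.36% and 2.12% of all genes). Ccn4, a secreted matrix protein, stood at 5.27, 6.25, 10.05 and 4.44 CPM in the wild-type tumors 1 to 4 and at 14.6, 23.5, 19.8 and 29.8 CPM in knock-out tumors 1 to 4 (log2 fold change 1.74 ± 0.32 SE, edgeR adjusted p = 0.0178). Ccnd1, which encodes cyclin D1, and Cd44, a hyaluronan receptor, also rose, with log2 fold changes of 0.74 ± 0.18 and 0.88 ± 0.21 (SE, edgeR adjusted p = 0.0488 and 0.0492). Twist1, a mesenchymal transcription factor, fell by 0.90 ± 0.17 on the log2 scale (SE, edgeR adjusted p = 0.0225). Axin2 and Twist1 were thus lower where Ccn4, Ccnd1 and Cd44 were higher. These calls were lost when some single tumors were left out. Ccnd1 kept its call only without knock-out tumor 1, and Cd44 only without that tumor or wild-type tumor 3, with edgeR adjusted p of up to 0.159 and 0.167. Twist1 kept its call only without wild-type tumor 1 or 3 or knock-out tumor 1, with an edgeR adjusted p of up to 0.108. Over all 24 alternatives its log2 fold change ran from -0.99 to -0.34. Ccn4 lost its call without wild-type tumor 2 or knock-out tumor 2, 3 or 4, with an edgeR adjusted p of up to 0.0723.

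Of the 11 tested nuclear genes, 9 had log2 fold changes below 0, with a median of -0.64, where 47.5% of all genes were below 0. Groups did not overlap for 4 of the 11, all lower, where 8.36% of all genes were lower without overlap. Only Tle1, a co-repressor that binds Tcf factors, was called (9.09% against 3.49% of all genes). Its log2 fold change was -0.90 ± 0.17 (SE, edgeR adjusted p = 0.0235). The call was lost without wild-type tumor 2 or knock-out tumor 2, 3 or 4 (edgeR adjusted p of up to 0.0878). None of the 21 tested genes of the intracellular relay was called, nor any of the 4 tested genes of receptor turnover, whose median log2 fold change was 0.47. Groups did not overlap for 3 of the 21 relay genes (14.3%), all lower, where 8.36% of all genes were lower without overlap. Ctnnb1, which encodes beta-catenin, stood at 342, 339, 435 and 270 CPM in the wild-type tumors 1 to 4 and at 303, 649, 562 and 651 CPM in knock-out tumors 1 to 4. All knock-out tumors but tumor 1 were above the wild-type tumors, and the log2 fold change of 0.64 ± 0.27 (SE) did not pass the test (edgeR adjusted p = 0.162).

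Markers of some other cell types leaned to one side between the genotypes, though at most 1 gene of any marker list passed the test. Of 10 fibroblast markers, 7 had log2 fold changes below 0, with a median of -0.58, and Fap alone was called (log2 fold change -1.52 ± 0.32 SE, edgeR adjusted p = 0.0329). Their summed level was 1347 to 2518 TPM in wild-type and 649 to 1910 TPM in knock-out tumors. All 10 skeletal muscle markers were below 0 (median -2.79, 1 called) and all 10 keratinocyte markers above 0 (median 1.37, 1 called). Keratinocyte markers summed to 21.8 to 870 TPM in wild-type and 632 to 1626 TPM in knock-out tumors. Endothelial markers gave 1 call, lower, and T-cell, leukocyte, adipocyte, Schwann cell and lung epithelial markers gave 0 calls. Ror2, Wnt2, Wnt5a and Cthrc1 are also made by fibroblasts and Wnt4 by keratinocytes, and the part of these cells in the results was not tested. Without wild-type tumor 3 and knock-out tumor 1, the tumors that stood apart, 10 of 36 tested members were called and all 5 of the members named were among them, where 25.1% of all genes were called. Ror2 then had a log2 fold change of -3.16 and Wnt5a one of 1.63.

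GC content also moved with the genotypes. Over the 16061 genes tested, log2 fold change and the GC content of the longest transcript had a Spearman correlation of -0.56, and over the 37 members one of -0.40, both as descriptions over genes of the same 8 libraries. Of the 15 members above 55% GC, 12 had log2 fold changes below 0 (median -0.83), and of the 10 members at or under 50%, 3 had (median 0.34). After a GC trend was removed from each library, 3 members were called, 2 lower (Ror2 and Axin2) and 1 higher (Wnt5a), where 3.78% of all genes were called. Their log2 fold changes became -2.34, -1.64 and 1.18. Fzd9 and Wnt9a kept their direction at -1.32 and -0.68 (edgeR adjusted p = 0.0796 and 0.1002). Whether the GC trend arose in the libraries or in the tumors was not tested.

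**Figure D5:**
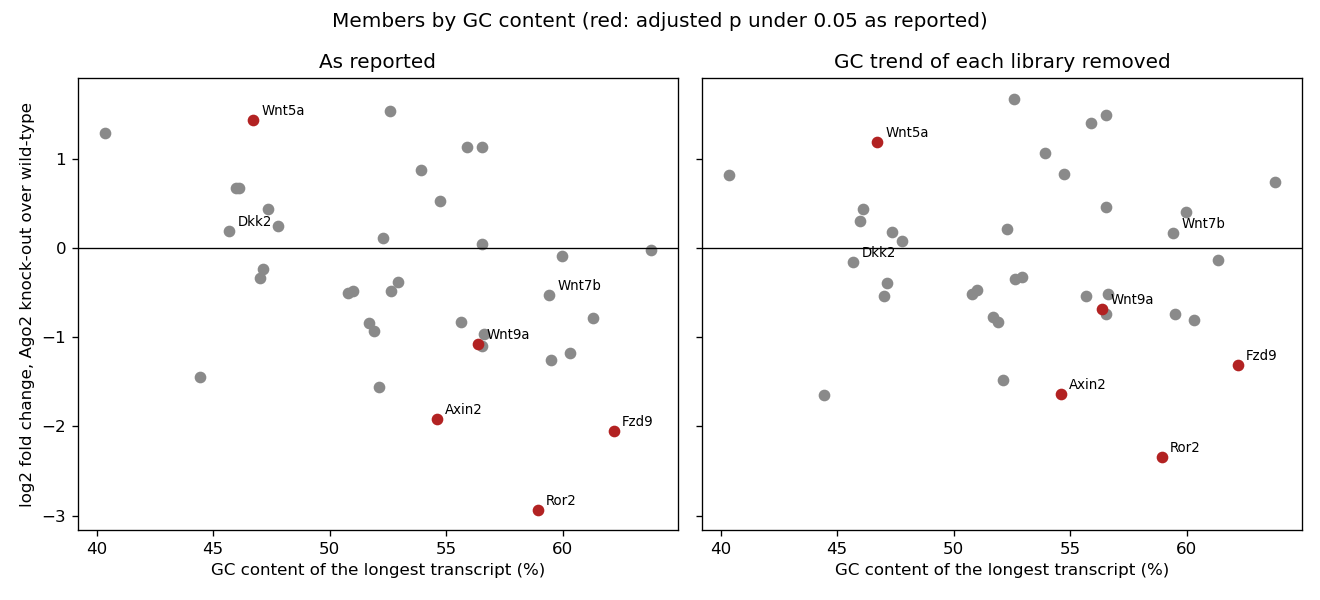
Log2 fold change, knock-out over wild-type tumors, against the GC content of the longest transcript in percent, for the 37 tested members. The left panel shows the values as reported and the right panel those after a GC trend was removed from each library, with the 5 called members in red. Ror2, Axin2 and Wnt5a stay far from 0 in both panels, and Wnt7b moves from -0.53 to 0.17.

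Some other tests called more members and more genes in all, and others called fewer. DESeq2's Wald test called 11 members, the same 5 with Fzd1, Fzd2, Notum, Wnt2, Wnt4 and Wnt11, where it called 13.1% of all genes. With limma voom and quality weights 15 members were called, the same 5 among them, where 27.9% of all genes were called. The filtered limma fit of log2(TPM + 1) called 1 member, Ror2, where 0.993% of all genes were called.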

How the data were processed

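RNA of 8 tumors was sequenced from stranded poly(A) libraries, paired-end. The authors deposited raw gene counts, whole numbers with no normalization, and TPM values, which divide counts by gene length. The submitters' processing notes name STAR and mm10. The annotation release and strand setting are not given in the sources used here for the tumors, and 99.3% of identifiers matched GENCODE M21 (GRCm38) with their version. Members whose exons share bases with genes on the opposite strand were Wnt5a, Wnt7b, Wnt11, Fzd5, Fzd6, Rspo3, Sfrp2, Notum, Axin2 and Lef1.

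Groups and replicate numbers came from the sample titles. The counts were compared with edgeR 4.0.16 under R 4.3.3 (filterByExpr, TMM, quasi-likelihood test, Benjamini-Hochberg adjustment at 0.05, no covariate). DESeq2 1.42.0 and limma 3.58.1 were alternatives, as were other scalings and filters, GC and length corrections, thinning and leaving out tumors. Sequences were read in Python 3.11.15. The procedure was tested on simulated data. Replicates of a group differed by more than sampling noise, and p-values measure the spread between these tumors. Library totals and the precision they give stand in the report.

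Members and lists were chosen with earlier results of these data known. Named were all called members, those at 1 CPM or more in either group whose groups did not overlap, the 2 most abundant of each role, called genes of the pathway lists, Ctnnb1 and Ago2. Others were named for a check or after their values were seen. The authors' other experiments were not analysed here.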

Additional observations from a re-analysis of the deposited data

Results flagged for a closer look

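Among 74 groups of 4 tumors (37 tested members in both genotypes), 5 held a tumor far from the other 3, by Dixon's criterion on CPM, where chance alone would give about 3.7. Sfrp4 stood at 15.5 CPM in wild-type tumor 3, while wild-type tumors 1, 2 and 4 had 1.72 to 2.87 CPM. Wnt4 stood at 0.430 CPM in wild-type tumor 4, the shallowest library, against 1.24 to 1.27 CPM. Wnt9a stood at 16.5 CPM in wild-type tumor 2, above 10.1 to 11.04 CPM. Lef1 stood at 1.11 CPM in knock-out tumor 1, against 0.623 to 0.687 CPM, and Wnt6 at 0.574 CPM in the same tumor, against 0.147 to 0.209 CPM.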

How the results depend on the processing

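Of the 5 called members, Ror2 alone passed the test in all alternatives. Counts of calls are given against 5 members (1 higher, 4 lower), 8 other pathway genes and 560 genes in all. Scaling by total counts called 3 members, 0 higher. DESeq2's Wald test called 11 members (2 higher, 9 lower), 18 pathway genes and 2265 genes, and limma voom 15 (8 higher, 7 lower), 29 and 4476. No count filter called 983 genes, and the length correction 13 pathway genes and 1166 genes. The GC correction called 3 members, 2 lower. Thinning to the shallowest library called 1 of 23 tested members, lower, and 0 higher, where 4.12% of all genes were called. Limma fits of TPM, filtered, called 1 member, lower, 0 higher and 2 pathway genes, with 153 genes in all at a pseudocount of 1 and 107 at 0.1, and at 1 without the filter 1 member, 0 pathway genes and 77 genes. The median log2 fold change of all genes was 0.21 and 0.28 in the filtered TPM fits, against 0.04. Leaving out 1 tumor called 1 to 7 members (0 to 3 higher, 1 to 4 lower), 1 to 17 pathway genes and 88 to 1793 genes. Leaving out wild-type tumor 3 and knock-out tumor 1 together, chosen after seeing the data, called 10 members (3 higher, 7 lower), 27 pathway genes and 3981 genes.

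With the replicate number as a block, 1 member (lower, 0 higher), 1 pathway gene and 70 genes were called, and with the block and the GC correction 1 member, 4 pathway genes and 307 genes. Tumors with the same number did not deviate together (correlations -0.24, 0.10, -0.05 and -0.29). The titles state no pairing, and correlations this few cannot exclude one.

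Directions turned for some members that did not pass the test, among them Wnt10a (-0.03 to 0.74) and Wnt5b (-0.09 to 0.41) with the GC correction. Dkk2 turned to -0.16 with the GC correction, -0.18 with the block and GC correction and -0.0088 without knock-out tumor 2 (range over single tumors left out -0.0088 to 0.31). Wnt7b turned to 0.084 with limma voom, 0.17 with the GC correction and 0.20 with the block and GC correction. Sfrp2 turned to 0.10 with the block and GC correction, 0.15 in both TPM fits with a pseudocount of 1, 0.35 in that with 0.1 and 0.35 without wild-type tumor 3 (range -0.78 to 0.35). Tcf7 turned to -0.0093 without wild-type tumor 2 (range -0.0093 to 0.19). The cause was not tested. Depth limits the low members: 14 of 51 had too few counts to be tested, and intervals for them cover counting error only.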
